A study of Mus musculus with 12 samples.

Results

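Genes of the glial scar and the perineuronal net were followed in mouse brains taken 14 d post-stroke. The 10 genes were chosen by name, through the Ensembl identifiers of the count table, from 49315 genes in all. They are the 4 lecticans *Acan*, *Bcan*, *Ncan* and *Vcan*, the other chondroitin sulfate proteoglycans *Cspg5* and *Ptprz1*, the tenascins *Tnc* and *Tnr*, and the link proteins *Hapln1* and *Hapln4*. All 10 passed the filter on low counts and were among the 20290 genes tested. The counts behind them ran from 84 reads for *Acan* in the shallowest case to 8698 for *Ptprz1*.

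Bulk RNA-sequencing covered 12 brains, 6 from mice transplanted with WT bone marrow (BM) and 6 from mice transplanted with *Tet2*-KO BM, to ask how *Tet2*-mediated clonal hematopoiesis affects the brain after stroke. Recipients were male CD45.1 mice of 8 to 12 weeks with intact *Tet2*, irradiated with the head shielded. The CD45.2 cells that name a group made up 10% of the graft, from *Tet2*-deficient donors or from their WT littermates, and CD45.1 cells with intact *Tet2* made up the remaining 90% in both groups. Every mouse then had a 30 min occlusion of the middle cerebral artery, 8 to 10 weeks after transplantation. The brain's own cells therefore carried intact *Tet2* in both groups, and only a part of the blood cells of the *Tet2*-KO group lacked it. The titles and genotype entries name the groups, whereas the treatment entry of all 12 samples, the *Tet2*-KO ones included, reads as a control graft with stroke.

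Chondroitin sulfate proteoglycans are core proteins that carry long sulfated sugar chains. Lecticans bind hyaluronan at one end, where link proteins lock the bond, and tenascin-R at the other, and the resulting lattice surrounds the cell bodies of mature neurons, above all parvalbumin interneurons, as the perineuronal net. After injury, astrocytes, oligodendrocyte precursors and fibroblasts deposit lecticans and tenascin-C around the lesion, and the chondroitin sulfate chains of this scar restrain the growth of axons and the remodelling of synapses.

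Total counts lay between 12000261 and 15340787 per WT library and between 12625047 and 21049763 per *Tet2*-KO library, and no pair of libraries of a group agreed within sampling noise. *Tet2* itself, read from brains made up mostly of host cells, was at 132 ± 7.60 CPM (counts scaled to a common library size; SD, n = 6) with WT BM and 131 ± 7.79 CPM with *Tet2*-KO BM, with counts of 1605 to 1974 and 1723 to 2663 per library. A pair of libraries stood apart in the marker lists. WT replicate 2 had the highest summed level of monocyte and macrophage markers, 2683 CPM, and *Tet2*-KO replicate 5, at 1528 CPM, lay within the WT range of 1028 to 2683 CPM while the other *Tet2*-KO libraries lay below it. WT replicate 2 also had the lowest summed levels of the neuron, net-bearing interneuron and cortex markers among all 12 libraries.

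None of the 10 genes passed an adjusted p of 0.05 between the groups in the quasi-likelihood test of edgeR, and 5 of all 20290 genes did (0.0246%). At an unadjusted p below 0.05 there were 3 of the 10, or 30%, against 23.1% of all tested genes, so the share among the members was near the background. *Cspg5* and *Tnr* were higher with *Tet2*-KO BM (10.8% of all genes were higher at that p) and *Tnc* was lower (12.2% of all genes were lower). The DESeq2 Wald test called 0 of the 10, against 4.25% of all genes, and limma-voom with quality weights called 1, *Cspg5*, against 9.92% of all genes. No member had groups that did not overlap, as 1.09% of all genes had. For 9 of the 10 the log2 fold change was within 0.2 of 0 in either direction, as for 69.2% of all tested genes, and the exception was *Tnc*. The median log2 fold change was 0.078 over the 10 genes and 0.010 over all tested genes.

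**Figure D1:**
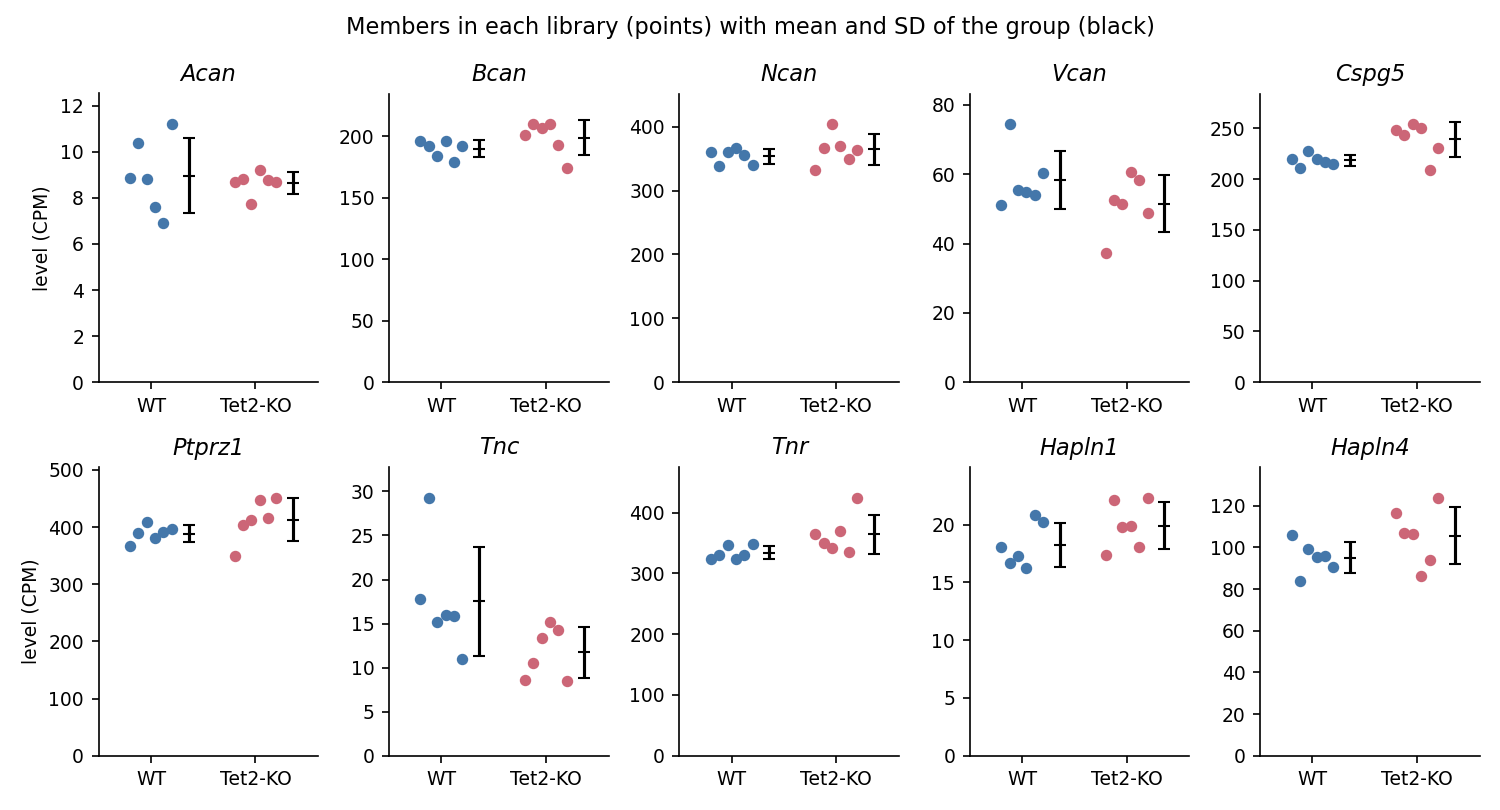
Level of each gene in CPM (vertical axes, all from 0) in the 6 WT and 6 *Tet2*-KO libraries (points), with the mean and SD of each group in black. The groups overlap in every panel, and the 29.3 CPM of *Tnc* in WT replicate 2 stands above all other libraries.

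The tenascins gave the largest and the smallest of the 3 differences at an unadjusted p below 0.05. *Tnc* encodes tenascin-C, a matrix glycoprotein of the developing brain that returns at sites of injury. Its level ran from 10.9 CPM through a median of 15.9 to 29.3 CPM in the WT libraries, and from 8.46 CPM through 11.9 to 15.2 CPM in the *Tet2*-KO libraries. All 6 *Tet2*-KO libraries lay below the WT median, 3 of them below every WT library, and the groups overlapped between 10.9 and 15.2 CPM. The log2 fold change of *Tet2*-KO over WT was -0.58 ± 0.23 (SE), with a 95% interval of -1.07 to -0.086 (adjusted p = 0.167, edgeR). An exact two-sided permutation test of the same 12 levels gave p = 0.0411. The size of this difference depended on WT replicate 2: without that library the log2 fold change was -0.37 (adjusted p = 0.324, edgeR), and without it and *Tet2*-KO replicate 5 it was -0.43 (adjusted p = 0.159, edgeR).

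*Tnr* encodes tenascin-R, made largely by oligodendrocyte-lineage cells and some interneurons, which cross-links the lecticans of the net. It ran from 324 CPM through a median of 330 to 349 CPM in the WT libraries, and from 335 CPM through 358 to 424 CPM in the *Tet2*-KO libraries. Of the 6 *Tet2*-KO libraries 4 lay above every WT library, and all 6 lay above the WT mean of 334 CPM. The log2 fold change was 0.13 ± 0.058 (adjusted p = 0.208, edgeR), which is 1.09-fold, with an interval from 1.00-fold to 1.19-fold. The exact permutation test gave p = 0.0216. The highest library, *Tet2*-KO replicate 6, carried part of this, since the log2 fold change without it was 0.078 (adjusted p = 0.374, edgeR).

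The exons of both tenascin genes share bases with a non-coding transcript on the opposite strand, 176 bases with 8030451A03Rik in *Tnc* and 443 bases with Gm38039 in *Tnr*. Whether counting used the strand is not given in the sources used here. The table listed 2 to 5 counts for 8030451A03Rik in each library and 0 for Gm38039 in all 12.

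Set against each other within a library, where no scaling between libraries is needed, the log2 ratio of *Tnc* to *Tnr* counts averaged -4.32 ± 0.49 (SD, n = 6) with WT BM and -4.99 ± 0.46 with *Tet2*-KO BM. The WT libraries ran from -4.99 to -3.49 and the *Tet2*-KO libraries from -5.64 to -4.55, and 3 of the 6 *Tet2*-KO libraries lay below every WT library. The difference of -0.67 gave p = 0.0346 in an exact two-sided permutation test, and 0.104 after Benjamini-Hochberg adjustment over the 3 ratios computed. The ratios were chosen with earlier results of these data known, which that adjustment does not cover. This ratio sets a gene that was lower over one that was higher. It therefore restates the differences of *Tnc* and *Tnr* and adds no support to them. Leaving out WT replicate 6, the WT library with the lowest ratio, gave -0.81 (exact permutation p = 0.00649, adjusted 0.0195), leaving out WT replicate 2 gave -0.51 (exact permutation p = 0.0693, adjusted 0.208), and leaving out WT replicate 2 and *Tet2*-KO replicate 5 together gave -0.60 (exact permutation p = 0.0476, adjusted 0.143).

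**Figure D2:**
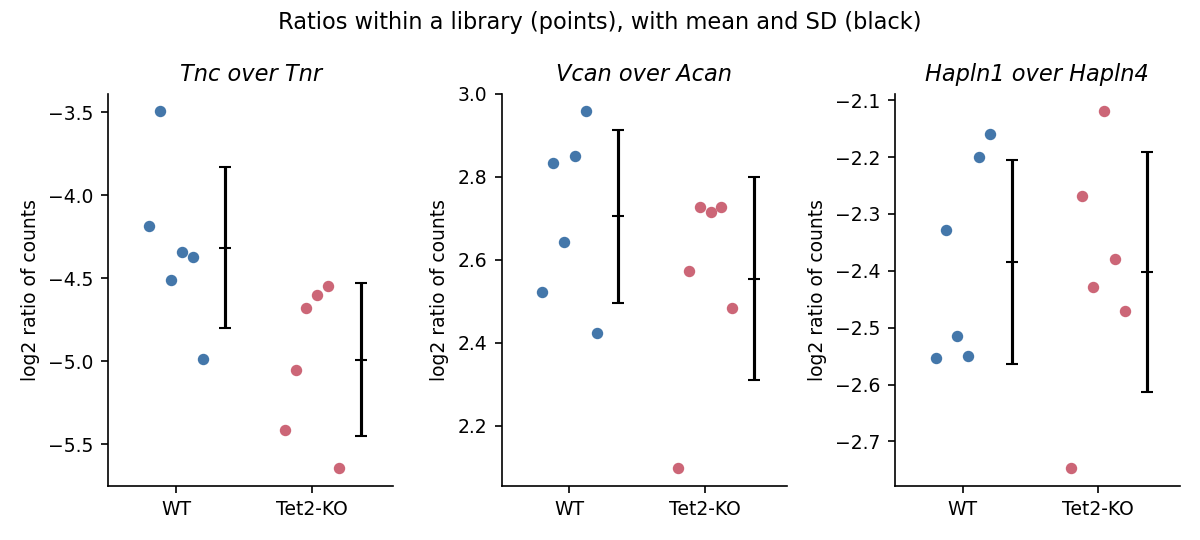
Log2 ratio of the counts of 2 genes within each library (vertical axes, which do not start at 0) for *Tnc* over *Tnr*, *Vcan* over *Acan* and *Hapln1* over *Hapln4*, by group, with mean and SD in black. The means of *Tnc* over *Tnr* are -4.32 and -4.99 with overlapping points, and the groups lie across each other in the other panels.

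No lectican had an unadjusted p below 0.05 between the groups. *Ncan*, neurocan, a secreted lectican that reactive astrocytes add to the scar, ran from 339 through 358 to 366 CPM in the WT libraries and from 333 through 365 to 404 CPM in the *Tet2*-KO libraries. Its log2 fold change of 0.044 had an interval of -0.065 to 0.15 (adjusted p = 0.648, edgeR), so that a change beyond 1.11-fold upwards lay outside the interval. It was 0.013 without *Tet2*-KO replicate 3 and 0.069 without *Tet2*-KO replicate 1. *Bcan*, brevican, the lectican of adult astrocytes and of synapse-bearing matrix, ran from 179 through 192 to 196 CPM and from 174 through 204 to 209.5 CPM. Of the 6 *Tet2*-KO libraries 4 lay above every WT library and 1, replicate 6, lay below every one. The log2 fold change of *Bcan* was 0.067 with an interval of -0.043 to 0.18 (adjusted p = 0.460, edgeR), and 0.10 without *Tet2*-KO replicate 6 (adjusted p = 0.252, edgeR).

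*Vcan*, versican, is the lectican of oligodendrocyte precursors, of nodes of Ranvier and of connective tissue. It ran from 51.1 through 55.1 to 74.4 CPM in the WT libraries and from 37.2 through 51.9 to 60.6 CPM in the *Tet2*-KO libraries, with WT replicate 2 highest and *Tet2*-KO replicate 1 lowest. The log2 fold change was -0.18 with an interval of -0.43 to 0.065 (adjusted p = 0.362, edgeR), and -0.14 without WT replicate 2 and *Tet2*-KO replicate 5. With each library left out in turn it ran from -0.24 (*Tet2*-KO replicate 4) to -0.099 (WT replicate 2), and was -0.10 without *Tet2*-KO replicate 1. *Acan*, aggrecan, is the lectican most closely tied to the net, made by the enwrapped neurons. It ran from 6.92 through 8.85 to 11.2 CPM in the WT libraries and from 7.73 through 8.74 to 9.21 CPM in the *Tet2*-KO libraries, every one of which lay inside the WT range. Its log2 fold change was -0.051 with an interval of -0.28 to 0.18 (adjusted p = 0.824, edgeR). So small a value moved with single libraries: it ran from -0.11 without WT replicate 5 to 0.022, with the opposite sign, without WT replicate 6.

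The ratio of *Vcan* to *Acan*, the lectican of precursors and connective tissue over that of the net, averaged 2.70 ± 0.21 on the log2 scale with WT BM and 2.55 ± 0.24 with *Tet2*-KO BM. The difference of -0.15 was within the spread of the libraries (exact permutation p = 0.294, adjusted over the 3 ratios 0.442). With each library left out in turn the difference ran from -0.21 (WT replicate 6) to -0.060 (*Tet2*-KO replicate 1), and was -0.10 without WT replicate 5.

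*Cspg5* encodes neuroglycan C, a membrane proteoglycan of neurites and of glial precursors. It ran from 211 through 218 to 227 CPM in the WT libraries and from 209 through 246 to 254 CPM in the *Tet2*-KO libraries. Of the 6 *Tet2*-KO libraries 5 lay above every WT library, and replicate 5, at 209 CPM, lay below every one. The log2 fold change was 0.13 ± 0.051 (adjusted p = 0.159, edgeR), which is 1.09-fold with an interval from 1.02-fold to 1.18-fold. The exact permutation test of the same levels, without adjustment over the 10 genes, gave p = 0.0260. Without *Tet2*-KO replicate 5 it was 0.17 and passed the threshold (adjusted p = 0.0272, edgeR), in a fit in which 11.0% of all genes passed. Without that library and WT replicate 2, a choice made after seeing the data, the log2 fold change was 0.16 (adjusted p = 0.0364, edgeR). In that fit 7.59% of all genes passed, and *Cspg5* was the only 1 of the 10 genes to pass in either fit. Replicate 5 was the only *Tet2*-KO library not above every WT library. Leaving it out raises the difference, so passing without it adds no support. In the fit without both, the same 3 of the 10 genes, *Cspg5*, *Tnc* and *Tnr*, had an unadjusted p below 0.05, beside 22.9% of all genes.

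*Ptprz1* encodes a receptor phosphatase of astrocytes and oligodendrocyte precursors whose secreted form, phosphacan, is a major proteoglycan of the brain matrix and binds tenascins. Counts per gene pool these forms. It ran from 366 through 390 to 408 CPM in the WT libraries and from 349 through 414 to 451 CPM in the *Tet2*-KO libraries, with 4 of 6 *Tet2*-KO libraries above every WT library and replicate 1 below every one. The log2 fold change was 0.088 with an interval of -0.040 to 0.22 (adjusted p = 0.400, edgeR), and 0.13 without *Tet2*-KO replicate 1 (adjusted p = 0.227, edgeR).

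*Hapln1*, the link protein of cartilage and of the net, and *Hapln4*, the brain link protein that partners brevican, hold lecticans on hyaluronan. *Hapln1* ran from 16.3 through 17.7 to 20.9 CPM in the WT libraries and from 17.3 through 19.8 to 22.3 CPM in the *Tet2*-KO libraries. Its log2 fold change was 0.13 with an interval of -0.048 to 0.31 (adjusted p = 0.367, edgeR). *Hapln4* ran from 83.7 through 95.7 to 106 CPM and from 86.4 through 107 to 124 CPM, with 4 of 6 *Tet2*-KO libraries above every WT library. Its log2 fold change was 0.15 with an interval of -0.021 to 0.32 (adjusted p = 0.274, edgeR). The ratio of the link proteins to each other did not differ beyond the spread of the libraries: the log2 ratio of *Hapln1* to *Hapln4* was -2.38 ± 0.18 with WT BM and -2.40 ± 0.21 with *Tet2*-KO BM (exact permutation p = 0.881, also 0.881 after adjustment).

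**Figure D3:**
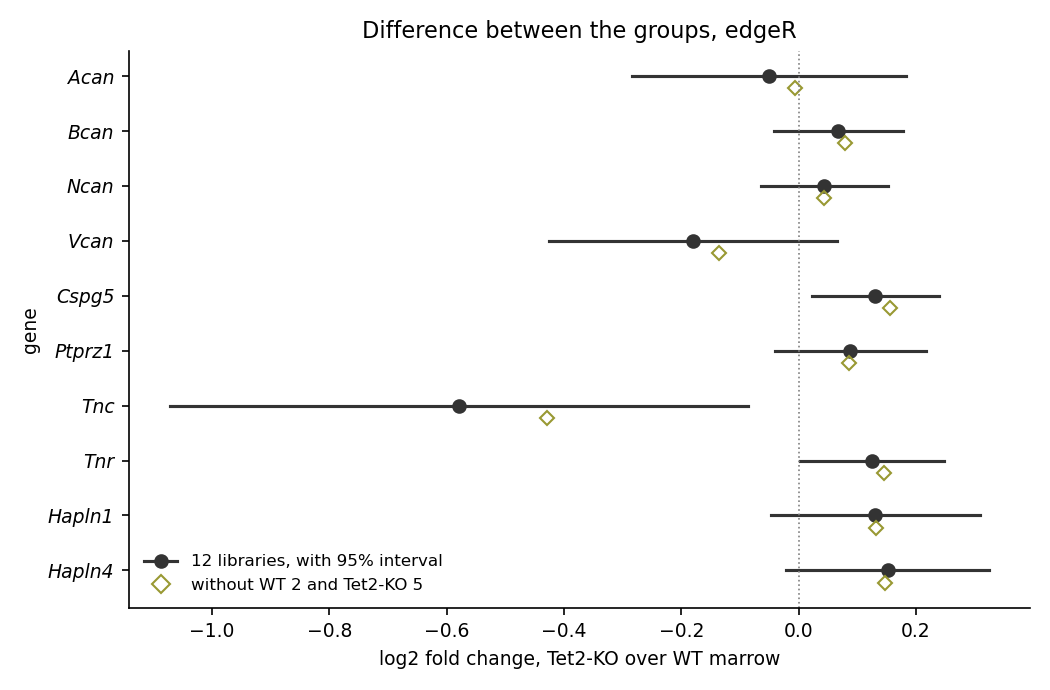
Log2 fold change of *Tet2*-KO over WT (horizontal axis) for each of the 10 genes, from the edgeR fit of 12 libraries with 95% intervals (filled circles and lines) and without WT replicate 2 and *Tet2*-KO replicate 5 (open diamonds). The intervals of *Cspg5*, *Tnr* and *Tnc* lie off 0, and the value of *Tnc* moves from -0.58 to -0.43.

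Levels of different genes can be compared only per length, here as CPM per kilobase of merged exon. By this measure the 10 genes formed an upper 6 and a lower 4, in the same order in both groups. With WT BM *Ncan* stood at 49.1 ± 1.58 CPM per kb (SD, n = 6) and *Bcan* at 46.7 ± 1.71, and their ranges overlapped, with *Ncan* the higher in 8 of 12 libraries. *Ptprz1* at 27.3 ± 1.00, *Tnr* at 26.0 ± 0.85 and *Hapln4* at 24.2 ± 1.94 followed, each with a range that overlapped that of the next, and *Cspg5* stood at 21.7 ± 0.54. A 5.38-fold step separated *Cspg5* from *Vcan* at 4.03 ± 0.58, and it held in all 12 libraries. *Hapln1* at 3.09 ± 0.32, *Tnc* at 2.25 ± 0.80 and *Acan* at 1.20 ± 0.22 came last, with *Tnc* above *Acan* in 9 of 12 libraries. The scar tenascin and the aggrecan of the net were thus the least abundant of the 10 transcripts per length in whole brains. Such levels average over all the tissue taken and do not give those at the lesion edge or around net-bearing neurons. Merged exons count every annotated form, so a gene of which the brain uses a short form is read too low on this scale.

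**Figure D4:**
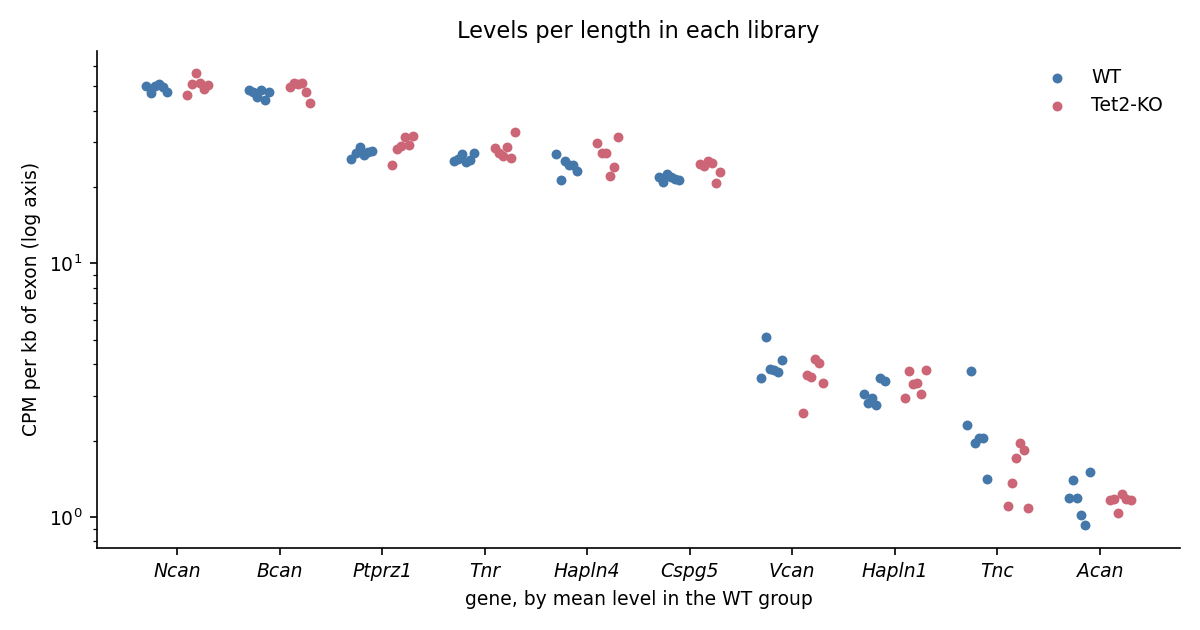
Level per length (vertical axis, CPM per kb of merged exon, log axis) in each of the 12 libraries, by group, with the genes ordered by their WT mean. The first 6 genes lie at 20.7 CPM per kb or more and the last 4 at 5.14 or less in every library, and the order of the means was the same in both groups.

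The spread between mice also differed among the genes. With WT BM the SD was smallest, as a share of the mean, for *Cspg5*, followed by 3.21% for *Ncan*, 3.27% for *Tnr* and 3.65% for *Bcan*, against 35.4% for *Tnc*, 18.0% for *Acan* and 14.4% for *Vcan*. With *Tet2*-KO BM it was 7.07% for *Cspg5*, 6.48% for *Ncan*, 25.0% for *Tnc*, 16.1% for *Vcan* and 5.65% for *Acan*, the smallest of the 10 there. The difference in spread between the groups was not tested.

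Each lectican gene lies beside a link protein gene in the genome (mm10, coordinates of the GENCODE M21 annotation). *Ncan* (chromosome 8, 70093085 to 70120873, minus strand) and *Hapln4* (chromosome 8, 70083457 to 70090862, plus strand) converge with a gap of 2222 bases. *Vcan* (chromosome 13, 89655312 to 89742509, minus strand) and *Hapln1* (chromosome 13, 89539796 to 89611652, plus strand) converge with a gap of 43659 bases. The log2 fold changes were 0.044 and 0.15 in the first pair and -0.18 and 0.13 in the second, with opposite signs in the second pair, and no value passed the adjusted threshold. *Acan* (chromosome 7, 79053483 to 79115099, plus strand) has *Hapln3* beside it, a link protein found mostly outside the brain, at 0.88 ± 0.35 CPM with WT BM and 1.05 ± 0.16 CPM with *Tet2*-KO BM. *Bcan* (chromosome 3, 87987531 to 88000230, minus strand) lies 21519 bases from *Hapln2*, the link protein of nodes of Ranvier, at 27.8 ± 2.55 CPM and 27.2 ± 3.85 CPM (adjusted p = 0.878, edgeR). The remaining members stand alone in this respect: *Cspg5* at chromosome 9, 110243783 to 110262576, *Ptprz1* at chromosome 6, 22875502 to 23052916, and *Tnr* at chromosome 1, 159523769 to 159931729, all on the plus strand, and *Tnc* at chromosome 4, 63959785 to 64047015, on the minus strand.

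The members were next set beside the genes that make, bind and cut the same matrix. None of the genes of these lists passed the adjusted threshold in all 12 libraries, so counts at an unadjusted p below 0.05 are given, to be read against 23.1% of all tested genes. By direction, 12.2% of all genes were lower and 10.8% higher. Counts past the adjusted threshold without WT replicate 2 and *Tet2*-KO replicate 5, a choice made after seeing the data, are to be read against 7.59% of all genes in that fit.

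Among 22 other link proteins and scar proteoglycans, 9 were lower and 4 were higher by this measure, with a median log2 fold change of -0.13. The lower ones with the smallest p were *Sdc1*, a syndecan of epithelial and plasma cells, at 4.04 ± 1.70 CPM with WT BM and 2.01 ± 0.49 CPM with *Tet2*-KO BM (log2 fold change -1.02, adjusted p = 0.110, edgeR), *Dcn*, decorin, a small leucine-rich proteoglycan of fibroblasts, at 105 ± 36.8 and 42.9 ± 23.9 CPM (-1.30, adjusted p = 0.121), and *Srgn*, serglycin of blood cell granules, at 18.8 ± 6.20 and 8.71 ± 4.61 CPM (-1.13, adjusted p = 0.123). The higher ones with the smallest p were the testicans *Spock1* at 0.25 (adjusted p = 0.110, edgeR), *Spock2* at 0.17 (adjusted p = 0.156) and *Spock3* at 0.11 (adjusted p = 0.201), matrix proteoglycans made by neurons. The fourth, named after its value was seen, was the glypican *Gpc5* at 0.14 (adjusted p = 0.209, edgeR). Decorin and lumican are also in the fibroblast marker list, and *Cspg4* in that of oligodendrocyte precursors. Without WT replicate 2 and *Tet2*-KO replicate 5, 9 of the 22 passed the adjusted threshold, 7 lower and 2 higher, with *Sdc1*, *Dcn*, *Srgn*, *Spock1* and *Spock2* among them.

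Of 21 tested genes for the synthesis and sulfation of chondroitin sulfate chains, 4 were lower and 1 was higher, with a median of 0.0043, and 16 had a larger p. *Chsy1*, which polymerizes the chain, was at 28.2 ± 2.99 CPM with WT BM and 22.9 ± 1.77 CPM with *Tet2*-KO BM (log2 fold change -0.30, adjusted p = 0.110, edgeR). *Dse* and *Chst14*, which convert chondroitin to dermatan sulfate, were at -0.85 and -0.68 (adjusted p = 0.124 and 0.126), and *B3gat3*, which completes the linker to the core protein, at 0.12 (adjusted p = 0.202). Without both libraries 1 of the 21, *Dse*, passed the adjusted threshold, beside 7.59% of all genes.

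Of 14 genes for hyaluronan, the polymer to which the lecticans attach, 5 were lower by the same measure and 0 were higher (edgeR), with a median of -0.14. They include *Has2*, a hyaluronan synthase, at 1.24 ± 0.58 CPM with WT BM and 0.58 ± 0.24 CPM with *Tet2*-KO BM (log2 fold change -1.08, adjusted p = 0.124), *Cemip*, a protein of hyaluronan breakdown, at 98.6 ± 14.4 and 51.9 ± 27.3 CPM (-0.93, adjusted p = 0.124), and *Cemip2* at -0.20 (adjusted p = 0.126). Without both libraries 1 of the 14, *Cemip*, passed, beside 7.59% of all genes.

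Of 11 genes for proteases that cleave lecticans and their inhibitor, 7 were lower by the same measure and 0 were higher (edgeR), with a median of -0.63. *Adamts1*, an aggrecanase, was at 38.9 ± 7.39 CPM with WT BM and 25.4 ± 4.67 CPM with *Tet2*-KO BM (log2 fold change -0.62, adjusted p = 0.110). *Mmp9*, the gelatinase of leukocytes and of the injured vessel wall, was at 4.76 ± 1.72 CPM with WT BM and lay at a log2 fold change of -0.95 (adjusted p = 0.110), and *Adamts5*, another aggrecanase, at 8.21 ± 2.77 and 4.56 ± 1.27 CPM (-0.85, adjusted p = 0.112). Without both libraries 5 of the 11 passed, all lower, these 3 among them.

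Of 19 receptors of proteoglycans and tenascins and proteins that bind to the net, 8 were higher and 3 lower, with a median of 0.12. The higher ones with the smallest p were *Rtn4rl1*, a Nogo receptor relative that binds chondroitin sulfate (log2 fold change 0.24, adjusted p = 0.115, edgeR), *Ptprd*, a receptor phosphatase of the same family as the proteoglycan receptor PTPσ (0.19, adjusted p = 0.121), and *Nptx2*, a pentraxin that gathers AMPA receptors on net-bearing interneurons (0.31, adjusted p = 0.146). The lower ones were *Egfr* at -0.33, *Itga9*, the integrin subunit that binds tenascin-C, at -0.38, and *Itgb1*, its partner, at -0.45 (adjusted p = 0.118, 0.126 and 0.133, edgeR). Without both libraries 5 of the 19 passed, 4 higher and 1 lower.

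**Figure D5:**
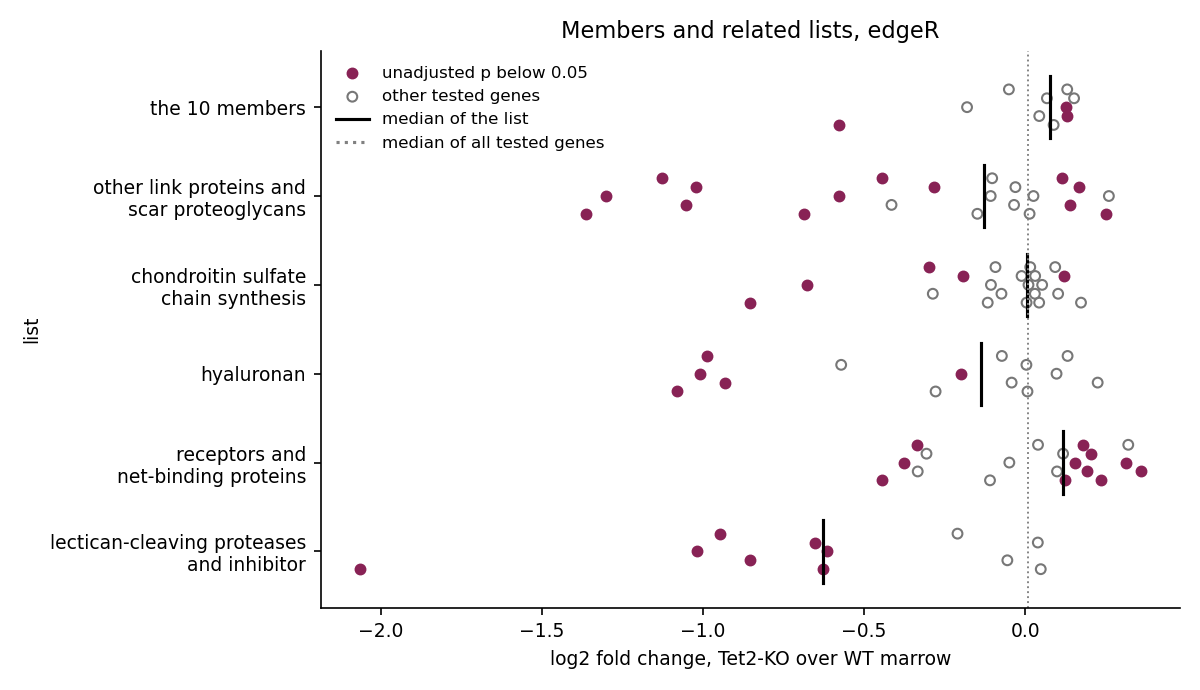
Log2 fold change of *Tet2*-KO over WT (horizontal axis) of each tested gene in the 10 members and in the 5 related lists, filled where the unadjusted p was below 0.05, with the median of each list (black) and of all tested genes (dotted). The medians run from -0.63 for the proteases to 0.12 for the receptors and net-binding proteins, and 0.078 for the members.

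Levels of marker genes were read for the cells that can make this matrix, and no marker passed the adjusted threshold in the 12 libraries (edgeR). Marker counts at an unadjusted p below 0.05 are to be read against 12.2% of all genes lower and 10.8% higher. Counts without WT replicate 2 and *Tet2*-KO replicate 5 follow each list where a marker then passed, to be read against 7.59% of all genes in that fit. In bulk tissue, fewer cells of a type and less RNA per cell cannot be told apart. Summed markers of fibroblasts and pericytes, a source of *Tnc*, *Vcan* and decorin, ran from 1020 to 2151 CPM in the WT libraries and from 335 to 1274 CPM in the *Tet2*-KO libraries, with 7 of 8 genes lower at an unadjusted p below 0.05. The 1 not called was the pericyte marker *Rgs5*, at a log2 fold change of -0.060 (adjusted p = 0.694, edgeR). Of the monocyte and macrophage markers 7 of 8 were lower, with sums of 1028 to 2683 and 61.1 to 1528 CPM, and of the reactive astrocyte markers 5 of 9, with sums of 1228 to 3170 and 505 to 2171 CPM. Without WT replicate 2 and *Tet2*-KO replicate 5, 5 of 8 fibroblast and pericyte markers, 6 of 8 monocyte and macrophage markers and 1 of 9 reactive astrocyte markers passed the adjusted threshold, all lower. The reactive astrocyte marker that passed was *Emp1*, and the sums of that list still overlapped, at 1228 to 1647 and 505 to 2171 CPM. In all 12 libraries *Gfap*, 1 of the 4 reactive astrocyte markers not called, was at a log2 fold change of -0.34 (adjusted p = 0.578, edgeR). The fibroblast and pericyte sums then ran from 1020 to 1433 CPM with WT BM and from 335 to 857 CPM with *Tet2*-KO BM, and the monocyte and macrophage sums from 1028 to 1638 and from 61.1 to 575 CPM. In both lists *Tet2*-KO replicate 5 was the only *Tet2*-KO library inside the WT range. It was left out after these sums were seen, so the lack of overlap follows from that choice and adds no support. The counts of markers that passed are open to the same choice. WT replicate 2, the library highest in *Tnc* and *Vcan*, had the highest sum in all 3 lists. Their part in the difference of *Tnc* was not tested.

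The lists of neural cells came next. Of 8 neuron markers 6 were higher, with sums of 3428 to 4705 CPM in the WT libraries and 4341 to 5711 CPM in the *Tet2*-KO libraries, and of 9 markers of net-bearing interneurons 5 were higher, with sums of 912 to 1069 and 1035 to 1221 CPM. Among the 5 were *Gad1*, *Gad2* and *Kcnc1*, which had the highest levels of the list and are not particular to net-bearing cells. The sums are thus weighted to genes shared with other neurons, and the count cannot be read as a rise in parvalbumin cells. The 4 not called were *Pvalb*, the parvalbumin gene (log2 fold change -0.031, adjusted p = 0.872, edgeR), *Syt2* (0.021, adjusted p = 0.894), *Tac1* (0.093, adjusted p = 0.620) and *Kcns3* (0.20, adjusted p = 0.453). Of 8 astrocyte markers 1 was higher and 0 lower, with sums of 5757 to 5904 and 5684 to 6424 CPM. Of 8 oligodendrocyte precursor markers 3 were lower, with sums of 432 to 584 and 391 to 493 CPM, and of 8 markers of myelinating oligodendrocytes and 7 of microglia none had an unadjusted p below 0.05 in edgeR. Regional markers, which follow the tissue taken, were read as well: 5 of 7 cortex markers and 1 of 7 striatum markers were higher, with cortex sums of 725 to 1168 and 1038 to 1607 CPM, 1 of 6 thalamus and 1 of 6 tested cerebellum markers were lower, and 5 of 7 hindbrain markers were too low to test. The cerebellum marker was *Zic1*, at 98.6 CPM with WT BM the highest of its list (log2 fold change -0.24, adjusted p = 0.214, edgeR). Of the 6 tested there, 4 had a positive log2 fold change, none at an unadjusted p below 0.05. The lowest WT sums of the neuron, net-bearing interneuron and cortex markers were those of WT replicate 2, and the lowest of the other WT libraries were 4316, 989 and 1078 CPM. Without that library and *Tet2*-KO replicate 5, 3 of 8 neuron, 2 of 7 cortex and 2 of 7 striatum markers passed the adjusted threshold, all higher, and 1 of 8 oligodendrocyte precursor and 1 of 6 thalamus markers passed, both lower. That choice was made after seeing the data, so these counts add no support. *Tet2*-KO replicate 5 had the lowest striatum sum of all libraries, 322 CPM, against 371 to 440 CPM in the WT libraries. The part of these lists in the differences of *Cspg5* and *Tnr* was not tested. No marker of any list was at 0 in a whole group.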

How the data were processed

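The authors depleted ribosomal RNA from total RNA of each brain, sequenced paired reads, and deposited whole-number read counts per gene, not normalized. The submitters' processing notes list Trimmomatic 0.36, STAR 2.5.2b, featureCounts, Subread 1.5.2 and the build mm10. The annotation release and the strand setting are not given in the sources used here. Groups and replicate numbers came from the sample titles, and no column belonged to another sample.

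Symbols, coordinates and merged exon lengths were taken from GENCODE M21, which named 48970 of the 49315 identifiers. Counts were filtered with filterByExpr, scaled with TMM and tested over 12 libraries with the robust quasi-likelihood F test of edgeR 4.0.16 in R 4.3.3, without covariates, with Benjamini-Hochberg adjustment over 20290 genes and a threshold of 0.05. SEs are the log2 fold change over the square root of F. Exact permutation tests ran over 924 assignments of the libraries, on log2(CPM + 0.1) for single genes and on log2 ratios of counts with 0.5 added to each, and cannot give a p below 0.00216. The scripts were tested on simulated counts. Alternatives were the DESeq2 1.42.0 Wald test, limma-voom (limma 3.58.1) with quality weights, scaling by the size factors of DESeq2 or by the upper quartile, other filters, a replicate block and each library left out. The members, lists and tests were chosen with earlier results of these data known. Named genes are the 10 members, their genomic neighbours, and up to 3 genes in each direction from each related list, those with the smallest unadjusted p below 0.05. Single marker genes were named after their values were seen. P-values measure the spread between these brains.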

Additional observations from a re-analysis of the deposited data

Results flagged for a closer look

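*Acan* in *Tet2*-KO replicate 3, at 7.73 CPM, stood apart from the other 5 libraries of its group, the nearest of which was at 8.67 CPM. Its gap was 0.639 of the range of the group, above Dixon's 95% critical value for 6 libraries. The value lay inside the WT range of 6.92 to 11.2 CPM. It was the only flag among 20 groups of libraries, where chance flags about 1 in 20.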

How the results depend on the processing

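The number of genes past the adjusted threshold, 5 in edgeR with 12 libraries, depended on the tool and on single libraries: it was 898 with the DESeq2 Wald test, 2013 with limma-voom, 44 with no filter on low counts, 0 with at least 10 counts in every library (4241 at an unadjusted p below 0.05, edgeR), 0 with the replicate block (4329 at an unadjusted p below 0.05, edgeR), and from 0 to 2257 with each library left out in turn, the highest without *Tet2*-KO replicate 5. Without that library and WT replicate 2, a choice made after seeing the data, it was 1554. Of the 10 members, 1 passed with limma-voom (*Cspg5*, log2 fold change 0.14, adjusted p = 0.0496), 1 without both libraries, and from 0 to 1 with each library left out. The number at an unadjusted p below 0.05 stayed between 2 and 4. The sign of all members held under every alternative apart from *Acan*, which ran from -0.11 to 0.022 with each library left out, and the ratio of *Hapln1* to *Hapln4* ran from -0.074 to 0.051. The ratio of *Tnc* to *Tnr* ran from -0.81 to -0.51 and passed the adjusted threshold once, without WT replicate 6. *Tnc* ran from -0.68 to -0.37. The replicate numbers did not pair the libraries (correlations of same-numbered libraries from -0.17 to 0.23, with 1 over 0.1, and 1 WT library matched best by its own number), and the replicate block changed no call at the adjusted threshold among the members. The cause of these differences was not tested. *Acan* and *Tnc*, with the fewest counts, had the widest counting error.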
